A study of Sus scrofa with 12 samples.

Results

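Swine leukocyte antigens (SLA) are the major histocompatibility complex molecules of the pig, and their genes were followed here across 6 ovaries together with the genes that load, process and control them. The members were the rows of the gene table whose symbol starts with SLA-, plus 18 named partner genes. This gave 39 of the 29884 rows: 9 class I rows, 12 class II rows and 18 partners. Left ovaries were taken from sows of a commercial farm 4 days after their 4th delivery. The SLS group (small litter size) was 3 ovaries, ZD2, ZD3 and ZD12, from sows with 8.48 ± 0.53 piglets per litter. The LLS group (large litter size) was 3 ovaries, ZD5, ZD7 and ZD8, from sows with 16.19 ± 0.43 piglets per litter. No treatment is given in the labels, each ovary gave 1 library of total RNA without ribosomal RNA, and the breed was not given in the sources used here. Litter size was recorded and not manipulated, so that anything else that differed between the sows cannot be told apart from it.

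Class I molecules show peptides from inside the cell to T cells. Their heavy chain pairs with β2-microglobulin (B2M), and the peptides are cut by the proteasome, carried into the endoplasmic reticulum by TAP1 and TAP2, trimmed by ERAP1 and ERAP2, and loaded with the help of TAPBP, CALR and PDIA3. Class II molecules show peptides taken up from outside, mostly on macrophages, dendritic cells and B cells. They are pairs of an α and a β chain (DR and DQ), guided by the invariant chain CD74 and loaded by DM, which DO restrains. The ovary holds macrophages and T cells, and the corpus luteum, the gland that forms after ovulation, is known to take up more of them as it regresses.

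The values were FPKM, reads scaled to transcript length and library depth. The libraries held between 32272803 and 60903268 reads, with the fewest in ZD8, and 3 reads on a transcript of 1 kb were between 0.0493 and 0.0930 FPKM. ZD8 stood apart from the other 5 ovaries. The summed level of 7 luteal steroid cell markers was 157 FPKM in ZD8 and between 9704 and 12706 FPKM in the others, and the median log2(FPKM + 1) of the tested genes was 0.27 higher in ZD8 than the mean of the others. The main results that rest on ZD8 are given with and without it. In whole ovaries, fewer cells of a type and less RNA per cell cannot be told apart.

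The starts of the class II genes shared a pattern of bases, which is shown first because CIITA, RFX5, RFXAP and RFXANK act there. In textbook terms, the RFX complex binds an X box and NF-Y binds a Y box, read ATTGG, and CIITA joins them without touching the DNA. The window from 250 bases before to 50 bases after each annotated transcript start was read from the RefSeq annotation of Sscrofa11.1. In the lines that follow, capitals mark GNNAC (N, any base) and ATTGG. They stand in the direction of the transcript.

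SLA-DRA, chr7:24824953-24825012, plus strand: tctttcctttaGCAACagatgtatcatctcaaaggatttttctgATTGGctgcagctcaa

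SLA-DRB1, chr7:24914066-24914125, minus strand: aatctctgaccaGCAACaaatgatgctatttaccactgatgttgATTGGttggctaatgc

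SLA-DQA1, chr7:24953371-24953430, plus strand: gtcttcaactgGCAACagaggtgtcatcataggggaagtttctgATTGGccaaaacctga

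SLA-DQB1, chr7:24977311-24977370, minus strand: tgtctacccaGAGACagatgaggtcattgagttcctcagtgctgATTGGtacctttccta

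SLA-DMA, chr7:25137977-25138036, minus strand: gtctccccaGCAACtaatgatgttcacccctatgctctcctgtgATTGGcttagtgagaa

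SLA-DMB, chr7:25125124-25125183, minus strand: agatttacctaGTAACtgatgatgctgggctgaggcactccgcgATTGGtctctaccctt

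SLA-DOA, chr7:25182740-25182799, minus strand: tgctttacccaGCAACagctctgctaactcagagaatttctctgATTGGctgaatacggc

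ATTGG began between 40 bases (SLA-DRA) and 90 bases (SLA-DOA) before the start of transcription in these 7 genes, and GNNAC began 32 to 35 bases before ATTGG. On the strand of the transcript, ATTGG was present in 8 of 8 protein-coding class II genes and in 28.0% of 20661 protein-coding genes. It was present in 3 of 7 protein-coding class I genes and in 6 of the 18 partners. On either strand it was held by 8 of 8 class II genes, 7 of 7 class I genes, 13 of 18 partners and 44.7% of all protein-coding genes. The pair, with GNNAC beginning 30 to 36 bases before ATTGG, was present in 7 of the 8 class II genes, the exception being SLA-DOB, and in 2.99% of all protein-coding genes. It was also present in 3 of 7 protein-coding class I genes (SLA-6, SLA-7 and SLA-8), and in 1 of the 18 partners, B2M. In SLA-6 and SLA-7 the ATTGG of the pair began 52 and 64 bases before the annotated start. In SLA-8 and B2M it began 1 and 10 bases after the start, unlike in the 7 class II genes. The pair was written down after the class II sequences had been read, so these counts describe the sequences and test nothing.

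Reads on the classical class I genes SLA-1, SLA-2 and SLA-3 are hard to keep apart. Over the coding sequence, SLA-1 and SLA-3 were 94.0% identical, and SLA-2 was 95.0% identical to each of them. Of all stretches of 100 bases in the longest transcript, 8.06% were shared with another histocompatibility row for SLA-1, 4.82% for SLA-2 and 2.85% for SLA-3. The annotated span of SLA-1 runs from 22824137 to 22920154 on chromosome 7 and that of SLA-2 from 22916747 to 22959405. SLA-5 lies inside the first and SLA-3 inside the second. LOC100515902 and LOC100513601, class I-like rows with no SLA name, also lie inside the first, and LOC100513601 ends at the same base as SLA-1. The program that counted the reads, its use of strand and its handling of reads with several matches are not given in the sources used here. The values of these rows are therefore uncertain as levels of single genes, and sums over them are given as well.

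Class I heavy chains were read in every ovary, and among the tested class I rows SLA-1 and SLA-2 varied most. In SLS, SLA-1 was at 79.2 FPKM (ZD2), 50.8 FPKM (ZD3) and 54.0 FPKM (ZD12). In LLS it was at 10.7 FPKM (ZD5), 11.0 FPKM (ZD7) and 109 FPKM (ZD8). Values are given in this order of ovaries throughout. The 2 LLS ovaries with luteal signal lay below all SLS ovaries, and ZD8 lay above them.

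SLA-2 was at 35.3, 29.1 and 42.6 FPKM in ZD2, ZD3 and ZD12, and at 14.3, 14.0 and 142 FPKM in ZD5, ZD7 and ZD8. As for SLA-1, ZD5 and ZD7 lay below all SLS ovaries and ZD8 above them. SLA-2 in ZD8 was 5.24-fold the mean of the other 5 ovaries on the FPKM scale, and SLA-1 was 2.64-fold. SLA-3, the remaining classical gene, was at 17.4, 20.0 and 11.2 FPKM in SLS and at 23.6, 12.9 and 28.1 FPKM in LLS, so that its groups overlapped.

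The balance of SLA-1 and SLA-2 did not overlap between the groups, with ZD8 included. The ratio of SLA-1 to SLA-2 FPKM was 2.25, 1.75 and 1.27 in ZD2, ZD3 and ZD12, and 0.748, 0.784 and 0.767 in ZD5, ZD7 and ZD8. All SLS ovaries had more SLA-1 than SLA-2 per length, and all LLS ovaries had less. This pair was chosen after its values were seen and was not tested. How often the ratio of any pair of genes separates the groups was not counted. Both rows are uncertain as levels of single genes, and so is their ratio.

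The tested class I rows outside the classical set, SLA-6, SLA-7, SLA-8 and SLA-11, varied less than SLA-1 and SLA-2. SLA-6 was at 13.0, 9.74 and 18.7 FPKM in SLS and at 9.45, 11.6 and 20.1 FPKM in LLS. SLA-7 was at 5.44, 4.16 and 5.66 FPKM against 3.47, 4.68 and 6.95 FPKM. Both had overlapping groups, and both were highest in ZD8.

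SLA-8 was at 20.4, 15.4 and 10.2 FPKM in SLS and at 18.9, 22.8 and 10.8 FPKM in LLS. It alone among the 7 tested class I rows was not highest in ZD8. SLA-11, which the annotation calls a pseudogene, was at 26.3, 18.0 and 24.9 FPKM in SLS and at 19.0, 23.6 and 33.6 FPKM in LLS. The FPKM of a pseudogene row was scaled to its whole span of the genome, so its level cannot be set beside that of a spliced gene.

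SLA-4, also a pseudogene, and SLA-5 did not reach the filter of at least 1 FPKM in at least 3 libraries and were not tested. SLA-4 was between 0.0745 and 0.581 FPKM in 5 ovaries and at 2.25 FPKM in ZD8. SLA-5 was between 0.0495 and 0.736 FPKM in those ovaries and at 1.21 FPKM in ZD8.

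**Figure D1:**
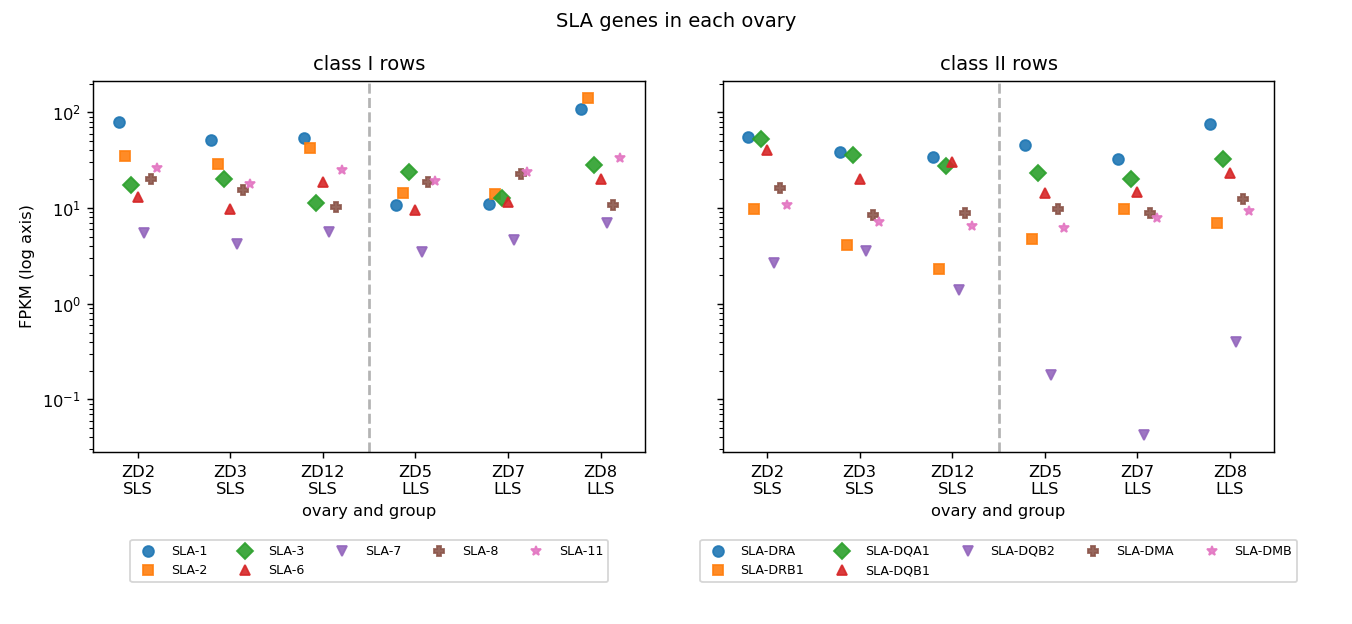
FPKM on a log axis (y) of the 7 tested class I rows (left) and the 7 tested class II rows (right) in each ovary (x), with SLS left of the dashed line and LLS right of it; each symbol is 1 gene in 1 library and symbols are shifted sideways for sight. SLA-1 and SLA-2 sit near 10 to 15 FPKM in ZD5 and ZD7 and above 100 FPKM in ZD8, and SLA-DQB2 is below 0.4 FPKM in all LLS ovaries.

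Reads on class I were also summed, since a sum does not depend on how reads are split among its own rows. It still depends on reads shared with rows outside it, and on whether reads with several matches were dropped or counted more than once. SLA-1 and SLA-2 together took 217, 152 and 186 RPM (reads per 1000000 reads of the library) in ZD2, ZD3 and ZD12, and 48.7, 48.8 and 488 in ZD5, ZD7 and ZD8. With SLA-3 and 2 class I-like rows of the region that carry no SLA name, the sums were 317, 249 and 304 RPM in SLS and 171, 154 and 586 in LLS. ZD5 and ZD7 stayed below all SLS ovaries in both sums. The mean of the SLS ovaries was 3.80-fold that of ZD5 and ZD7 in the first sum and 1.79-fold in the second. With all 11 named and unnamed class I rows it was 1.40-fold. The first sum left out LOC100513601, the row with which SLA-1 shared the most stretches of 100 bases.

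The unnamed rows, added after their values were seen, were not silent. LOC100513601, which shares 11.9% of its stretches of 100 bases with other histocompatibility rows, was at 25.0, 19.0 and 57.3 FPKM in SLS and at 34.3, 37.4 and 9.37 FPKM in LLS. It was lowest in ZD8, where SLA-1 and SLA-2 were highest, and its annotated span lies inside that of SLA-1. LOC100515902 was at 7.52, 6.21 and 0.104 FPKM in ZD2, ZD3 and ZD12, and at 0.428, 7.78 and 0 FPKM in ZD5, ZD7 and ZD8. It was thus above 6 FPKM in 3 ovaries and below 0.5 FPKM in the other 3, and each of these sets held ovaries of both groups.

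Within class I, SLA-1 took 30.1%, 25.6% and 23.8% of the named class I reads in ZD2, ZD3 and ZD12, and 6.99%, 7.06% and 24.1% in ZD5, ZD7 and ZD8. SLA-2 took between 10.1% and 21.1% in 5 ovaries and 35.3% in ZD8. SLA-11 took between 21.8% (ZD8) and 44.5% (ZD7). These shares rest on 16041 to 29207 reads per ovary.

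**Figure D2:**
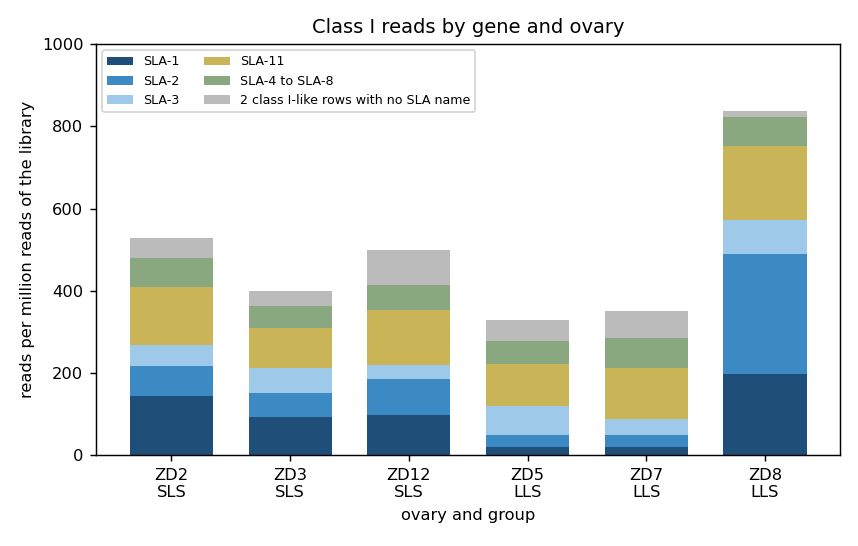
RPM, reads per 1000000 reads of the library, (y) on class I rows in each ovary (x), stacked by gene, with SLA-4 to SLA-8 summed and the 2 unnamed class I-like rows in grey. SLA-1 and SLA-2 are thin bands in ZD5 and ZD7 (48.7 and 48.8 RPM together) and take 488 RPM together in ZD8.

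Among class II genes, the DR pair had overlapping groups, and the DQ genes had lower means in LLS with differences that did not pass the test. SLA-DRA, the DR α chain, was at 54.7, 38.4 and 34.4 FPKM in ZD2, ZD3 and ZD12, and at 45.4, 32.4 and 75.6 FPKM in ZD5, ZD7 and ZD8. SLA-DRB1, its β chain, was at 9.87, 4.11 and 2.32 FPKM in SLS and at 4.76, 9.72 and 6.90 FPKM in LLS. Its 2 chains did not keep 1 ratio, since DRA was between 3.34-fold (ZD7) and 14.8-fold (ZD12) DRB1. SLA-DRB1 shared 20.6% of its stretches of 100 bases with other rows, mostly with the unnamed LOC100153139, and DRA shared none. With 3 unnamed DRB-like rows, DRB1 reads summed to 23.1, 10.9 and 12.3 RPM in SLS and to 15.9, 24.4 and 26.3 RPM in LLS.

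SLA-DQA1, the DQ α chain, was at 53.0, 35.9 and 27.4 FPKM in ZD2, ZD3 and ZD12, and at 23.4, 20.0 and 32.5 FPKM in ZD5, ZD7 and ZD8. SLA-DQB1, its β chain, was at 40.0, 20.0 and 30.2 FPKM in SLS and at 14.4, 14.7 and 23.2 FPKM in LLS. For both chains only ZD8 reached into the range of SLS. Relative to DRA, the groups separated: DQA1 over DRA was 0.970, 0.936 and 0.797 in SLS and 0.516, 0.616 and 0.430 in LLS. DQB1 over DRA was 0.732, 0.521 and 0.880 in SLS and 0.318, 0.455 and 0.307 in LLS. These ratios of FPKM were chosen after the values were seen and were not tested. The share of other gene pairs whose ratios separate the groups was not counted.

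SLA-DQB2, annotated as a pseudogene at chr7:24967837-24968612 beside SLA-DQB1 and on the same strand, was the member with the widest gap. It was at 2.69, 3.51 and 1.39 FPKM in ZD2, ZD3 and ZD12, and at 0.179, 0.0423 and 0.399 FPKM in ZD5, ZD7 and ZD8. These values stand for 127, 141 and 57 reads in SLS and 8, 2 and 10 reads in LLS. The mean FPKM of SLS was 12.2-fold that of LLS, or 22.9-fold without ZD8. SLA-DQB2 reached the filter only through the SLS ovaries, so its place among the tested rows already required higher values there. It shared no stretch of 100 bases with another histocompatibility row of the reference.

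The genes of peptide exchange had overlapping groups. SLA-DMA was at 16.2, 8.44 and 8.98 FPKM in SLS and at 9.87, 8.87 and 12.4 FPKM in LLS. SLA-DMB was at 10.7, 7.14 and 6.46 FPKM against 6.24, 7.81 and 9.22 FPKM, and DMA over DMB stayed between 1.14 and 1.58.

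The DO chains were lower and were not tested. SLA-DOA was at 2.20, 0.630 and 0.547 FPKM in SLS and at 0.845, 0.450 and 2.58 FPKM in LLS. SLA-DOB was at 0.918, 0.581 and 0.576 FPKM against 1.10, 0.865 and 1.16 FPKM. Of the remaining class II pseudogenes, SLA-DRB4 did not exceed 0.0787 FPKM, SLA-DRB5 had 1 read in ZD3 and none elsewhere, and SLA-DYB was at 0 in all 6 libraries.

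CD74, the invariant chain, was at 73.4, 40.5 and 48.0 FPKM in ZD2, ZD3 and ZD12, and at 62.4, 55.0 and 124 FPKM in ZD5, ZD7 and ZD8. CD74 over DRA stayed between 1.06 and 1.70. CIITA, which switches class II genes on, was at 1.75, 1.05 and 1.04 FPKM in SLS and at 1.27, 1.40 and 2.10 FPKM in LLS. Both had overlapping groups and were highest in ZD8.

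ZD2 was the highest SLS ovary for 10 of 10 genes among the 8 protein-coding class II genes, CD74 and CIITA. This place was looked at after the values were seen. Below ZD2 the order varied, with ZD3 above ZD12 for SLA-DRA and below it for SLA-DQB1. Among the class II pseudogenes, SLA-DQB2 was highest in ZD3 and SLA-DRB4 in ZD12. Of the 32 tested members, 20 (62.5%) had ZD2 as the highest SLS ovary, against 22.3% of all 12260 tested genes. By class, this was so for 6 of 7 tested class II rows, 3 of 7 class I rows and 11 of 18 partners. Markers of all leukocytes had the same top place in 5 of 5 genes, with a summed level of 32.4 FPKM in ZD2 and 18.7 and 19.7 FPKM in ZD3 and ZD12. Macrophage and monocyte markers had it in 8 of 11 genes, with 175 FPKM against 89.3 and 150 FPKM. Stromal markers had it in 5 of 6 genes (9586 FPKM against 4200 and 3768 FPKM), red cell markers in 2 of 2 tested genes (319 FPKM against 64.5 and 53.7 FPKM) and epithelial markers in 3 of 4 tested genes (54.2 FPKM against 7.63 and 21.4 FPKM). Dendritic cell markers summed to 7.72 FPKM in ZD2 against 4.78 and 5.85 FPKM, and B cell markers were lowest in ZD2 (0.743 against 0.876 and 0.797 FPKM). Among tested markers, ZD2 held this place for 3 of 8 endothelial, 2 of 7 luteal steroid cell and 2 of 4 T and NK cell genes. It held the place for no tested theca, granulosa or oocyte marker. The part of any of these cells in the class II levels was not tested.

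The sums of the classes lay furthest apart in ZD8. Summed class I FPKM was 197, 148 and 169 in ZD2, ZD3 and ZD12, and 99.6, 101 and 353 in ZD5, ZD7 and ZD8. Summed class II FPKM was 190, 119 and 112 in SLS and 106, 94.9 and 164 in LLS. Class II over class I was 0.964, 0.803 and 0.666 in SLS and 1.07, 0.942 and 0.464 in LLS. Over all rows, ZD5 alone had more class II than class I, and ZD8 had the lowest ratio. The order depended on the rows, since these sums hold pseudogenes scaled to their whole span. With protein-coding rows alone the ratio was above 1 in ZD2 (1.10), ZD5 (1.32) and ZD7 (1.23), and it was again lowest in ZD8 (0.515).

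The log2 ratio of class II to class I was -0.32 ± 0.27 in SLS and -0.37 ± 0.65 in LLS (SD, n = 3 each). The difference of -0.05, LLS minus SLS, was smaller than the pooled SD of 0.50. Without ZD8 the difference was 0.32, in the other direction, beside a pooled SD of 0.23 over the other 5 ovaries. The sums were led by the highest rows: without SLA-1 and SLA-DRA the difference was -0.64, and with the classical genes alone (SLA-1, SLA-2 and SLA-3 against DRA, DRB1, DQA1 and DQB1) it was 0.28. Without ZD8 these became -0.33 and 0.93. For the classical genes the ratio was 1.19, 0.984 and 0.875 in SLS and 1.81, 2.03 and 0.496 in LLS, so that ZD5 and ZD7 lay above all SLS ovaries and ZD8 below them. With ZD8 the groups overlapped, and the sign of the difference depended on the rows summed and on ZD8. None of these differences was tested.

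**Figure D3:**
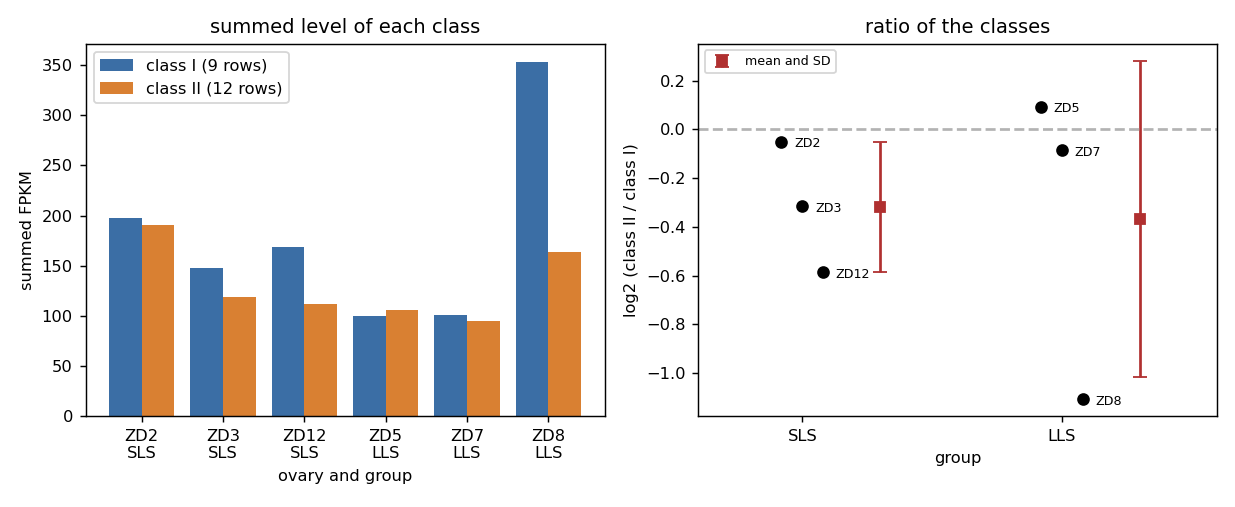
Left, FPKM (y) summed over the 9 class I rows and the 12 class II rows in each ovary (x); right, log2 of class II over class I (y) by group (x), with each ovary as a point and the group mean and SD as a square and bar. Class I reaches 353 FPKM in ZD8 against 99.6 and 101 FPKM in ZD5 and ZD7, and the ratio of ZD8 lies below all other ovaries.

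B2M, the light chain of class I, did not follow the heavy chains SLA-1 and SLA-2. It was at 38.7, 51.8 and 42.4 FPKM in ZD2, ZD3 and ZD12, and at 79.8, 52.5 and 31.7 FPKM in ZD5, ZD7 and ZD8. It was highest in ZD5, where SLA-1 was lowest, and lowest in ZD8, where SLA-1 and SLA-2 were highest. SLA-8 and the unnamed LOC100513601 were lower in ZD8 than in ZD5 and ZD7, as B2M was. The other tested class I rows were highest in ZD8. The reference holds 2 loci with the symbol B2M, and the reads came out whole with the length of 1 of them, at chr1:126837721-126844043. Without ZD8, the LLS values lay above all SLS values.

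The transporter and the peptide loading genes had overlapping groups. TAP1 was at 14.1, 8.70 and 12.3 FPKM in SLS and at 10.8, 14.6 and 9.08 FPKM in LLS. TAP2 was at 9.83, 8.43 and 5.57 FPKM against 6.59, 8.01 and 5.06 FPKM. TAPBP, the bridge between TAP and class I, was at 33.7, 22.3 and 32.3 FPKM against 27.1, 30.4 and 33.4 FPKM.

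The chaperones had the highest mean FPKM of all members, and all 3 were lowest in ZD8. CALR was between 522 and 682 FPKM in 5 ovaries and at 342 FPKM in ZD8. PDIA3 was between 325 and 461 FPKM and at 162 FPKM in ZD8. CANX, which holds the heavy chain before B2M joins it, was between 141 and 231 FPKM and at 118 FPKM in ZD8. These proteins fold many other proteins of the endoplasmic reticulum as well.

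The trimming enzymes differed in their order. ERAP1 was between 9.20 and 14.2 FPKM in 5 ovaries and at 7.57 FPKM in ZD8. ERAP2 was at 2.09, 2.21 and 2.0 FPKM in SLS and at 2.55, 2.23 and 2.80 FPKM in LLS, and its groups did not overlap. The gap was narrow, since ZD3 and ZD7 lay at 2.21 and 2.23 FPKM.

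PSMB8, PSMB9 and PSMB10 are the subunits of the immunoproteasome, which replace PSMB5, PSMB6 and PSMB7 under interferon and in immune cells. PSMB8 was at 15.1, 10.9 and 11.6 FPKM in SLS and at 7.55, 13.5 and 7.03 FPKM in LLS. PSMB9 was at 5.43, 4.96 and 3.98 FPKM against 4.73, 5.57 and 5.25 FPKM. PSMB10 was at 12.5, 9.66 and 10.2 FPKM against 7.97, 11.5 and 9.46 FPKM. No subunit had groups that did not overlap.

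Relative to the constitutive subunit it replaces, each was highest in ZD8. PSMB8 was between 9.59% and 15.6% of PSMB5 in 5 ovaries and 25.5% in ZD8. PSMB9 was between 5.93% and 9.91% of PSMB6 and 22.7% in ZD8. PSMB10 was between 17.6% and 25.2% of PSMB7 and 37.3% in ZD8. The higher percentages came with lower denominators: PSMB5 was at 27.6 FPKM in ZD8 and between 69.5 and 98.8 FPKM elsewhere, while PSMB8 was itself lowest in ZD8.

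NLRC5, which switches class I genes on, was at 2.32, 1.84 and 1.96 FPKM in SLS and at 1.59, 2.52 and 3.02 FPKM in LLS. RFX5, the DNA-binding subunit of the RFX complex, was at 2.74, 2.28 and 3.24 FPKM in ZD2, ZD3 and ZD12, and at 3.44, 3.25 and 6.21 FPKM in ZD5, ZD7 and ZD8. Its groups did not overlap, although ZD12 and ZD7 nearly met. RFXAP was at 2.28, 4.10 and 5.99 FPKM against 2.69, 2.35 and 9.72 FPKM. RFXANK was at 24.2, 15.7 and 28.3 FPKM against 16.0, 21.9 and 17.4 FPKM. RFX5, RFXAP and NLRC5 were highest in ZD8, and RFXANK was not.

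**Figure D4:**
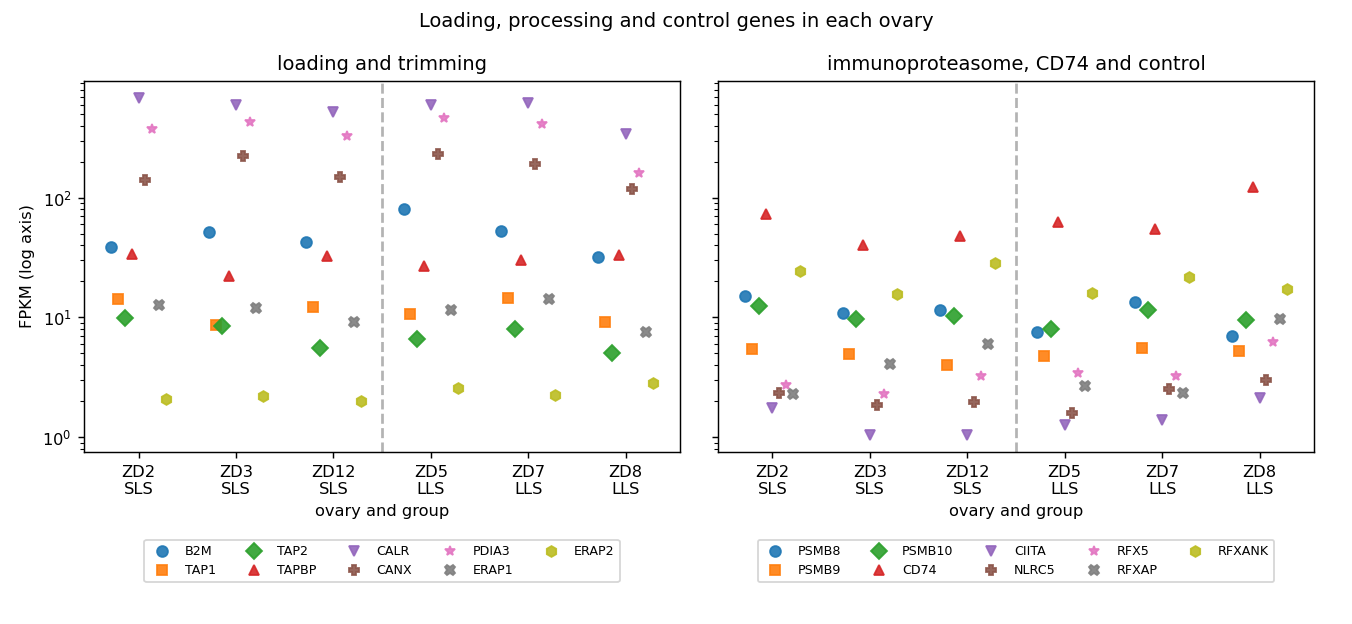
FPKM on a log axis (y) of the 9 loading and trimming genes (left) and of the 3 immunoproteasome subunits, CD74 and 5 control genes (right) in each ovary (x); each symbol is 1 gene in 1 library, shifted sideways for sight. CALR, PDIA3, CANX and B2M are lowest in ZD8, and CD74, RFX5 and RFXAP are highest there.

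ZD8 was often the ovary at the end of the range. It was the highest ovary for 13 of 32 tested members (40.6%), against 44.6% of all tested genes, and the lowest for 7 (21.9%), against 26.3%, so that the members as a whole were near the background. The 13 held 6 of 7 class I rows, 1 of 7 class II rows and 6 of 18 partners. The 7 were B2M, TAP2, PSMB8, CALR, CANX, PDIA3 and ERAP1, and held no SLA row. TAP1 and TAPBP were neither highest nor lowest there, and ERAP2 was highest. The class I-like rows with no SLA name, which were not among the 32, were lowest in ZD8. T and NK cell markers summed to 17.9 FPKM in ZD8 and to between 5.32 and 8.82 FPKM in the other ovaries, with CD2 at 6.66 FPKM and CD3E at 3.35 FPKM in ZD8. Of these 11 markers, 4 passed the filter, and 3 of the 4 were highest in ZD8. Leukocyte markers in ZD8 (30.9 FPKM) and macrophage markers (166 FPKM) lay inside the range of the other ovaries by their sums, although 2 of 5 leukocyte markers and 6 of 11 macrophage markers were highest in ZD8 and CD14 was lowest there. B cell markers summed to at most 1.62 FPKM in any ovary. The 7 dendritic cell markers summed to 7.61 FPKM in ZD8 and to between 4.78 and 7.72 FPKM elsewhere. Of them, CLEC9A was at 0 in all ovaries, FLT3 was at 1.17 FPKM in ZD8 and at most 0.345 FPKM elsewhere, and XCR1 at 0.539 FPKM and at most 0.222 FPKM. Theca markers summed to 415 FPKM in ZD8 (9.31 to 74.4 FPKM elsewhere), oocyte markers to 125 FPKM (6.49 to 22.7 FPKM) and endothelial markers to 163 FPKM (308 to 445 FPKM). The part of any of these cells, or of the low luteal signal, in the levels of ZD8 was not tested.

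The groups were then compared gene by gene over all 12260 genes that reached the filter, by limma on log2(FPKM + 1). Of the 39 members 32 were tested, and none was called. A call needed an adjusted p (Benjamini-Hochberg) under 0.05 with a log2 fold change beyond 1 in either direction. Over all genes, 0% were called (0 of 12260), with 216 at an unadjusted p under 0.05, and limma's voom on the recovered reads called 0 as well. The smallest adjusted p by limma was 0.999 among the members and 0.860 among all genes. Log2 fold changes of the members, LLS over SLS, ran from -1.51 to 0.52, with 15 above 0 and 17 below. Their median was -0.03, beside 0.02 for all tested genes.

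At an unadjusted p under 0.05, no member was higher in LLS, against 0.555% of all genes. One was lower, SLA-DQB2, against 1.21%, with a log2 fold change of -1.51 (SE 0.33) and an adjusted p of 0.999 by limma. SLA-DQB2 reached the filter only through the SLS ovaries, so the filter favoured its low p, which supports no difference. Members with groups that did not overlap were ERAP2 and RFX5 on the higher side, against 1.95% of all genes, and SLA-DQB2 on the lower side, against 3.17%. The separation of SLA-DQB2 was fixed by the filter and is not a result. An exact permutation test of 3 ovaries against 3 cannot go below p = 0.1, which ERAP2, RFX5 and SLA-DQB2 reached, SLA-DQB2 by way of the filter. The log2 fold changes of RFX5 (0.46, SE 0.31) and ERAP2 (0.18, SE 0.26) were within 1.5 SE of 0. Without ZD8 they were 0.22 (SE 0.25) and 0.13 (SE 0.24).

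The DQ chains and SLA-1 had the next lowest values in LLS. SLA-1 had a log2 fold change of -1.30 (SE 0.80), SLA-DQB1 of -0.73 (SE 0.34) and SLA-DQA1 of -0.58 (SE 0.33). On the higher side, CD74 was at 0.52 (SE 0.39), SLA-DRB1 at 0.47 (SE 0.46) and SLA-3 at 0.36 (SE 0.36). Without ZD8, CD74 was at 0.16 and SLA-3 at 0.14, and SLA-DRB1 was at 0.08 without ZD12 and at 0.93 without ZD2. None of these differences passed the test.

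Without ZD8, limma called 21 of the 12260 genes (0.171%), and SLA-1 was the only member among them. Its log2 fold change was -2.37 (SE 0.26) with an adjusted p of 0.024 by limma, and the mean FPKM of SLS was 5.66-fold that of ZD5 and ZD7. SLA-2 was at -1.26 (adjusted p = 0.111 by limma), SLA-DQB2 at -1.62 (0.096) and SLA-DQB1 at -0.94 (0.471). Groups that did not overlap were found for 5 of 32 members (15.6%) on the lower side, which is near the 11.7% of all genes. These members were SLA-1, SLA-2, SLA-DQA1, SLA-DQB1 and SLA-DQB2. The separation of SLA-DQB2 was fixed by the filter, which it reached only through the SLS ovaries. On the higher side the members with groups that did not overlap were B2M, ERAP2 and RFX5, against 7.44%. Leukocyte markers summed to 16.3 and 19.1 FPKM in ZD5 and ZD7, beside 18.7 to 32.4 FPKM in SLS, and their part in the lower DQ values was not tested. B2M was at 0.55 (adjusted p = 0.928 by limma), so that the heavy chain SLA-1 and the light chain pointed in opposite directions in ZD5 and ZD7. With SLA-1, SLA-2, SLA-3 and the 2 unnamed rows summed, SLS over ZD5 and ZD7 was 1.79-fold in RPM, and with all 11 named and unnamed class I rows it was 1.40-fold.

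**Figure D5:**
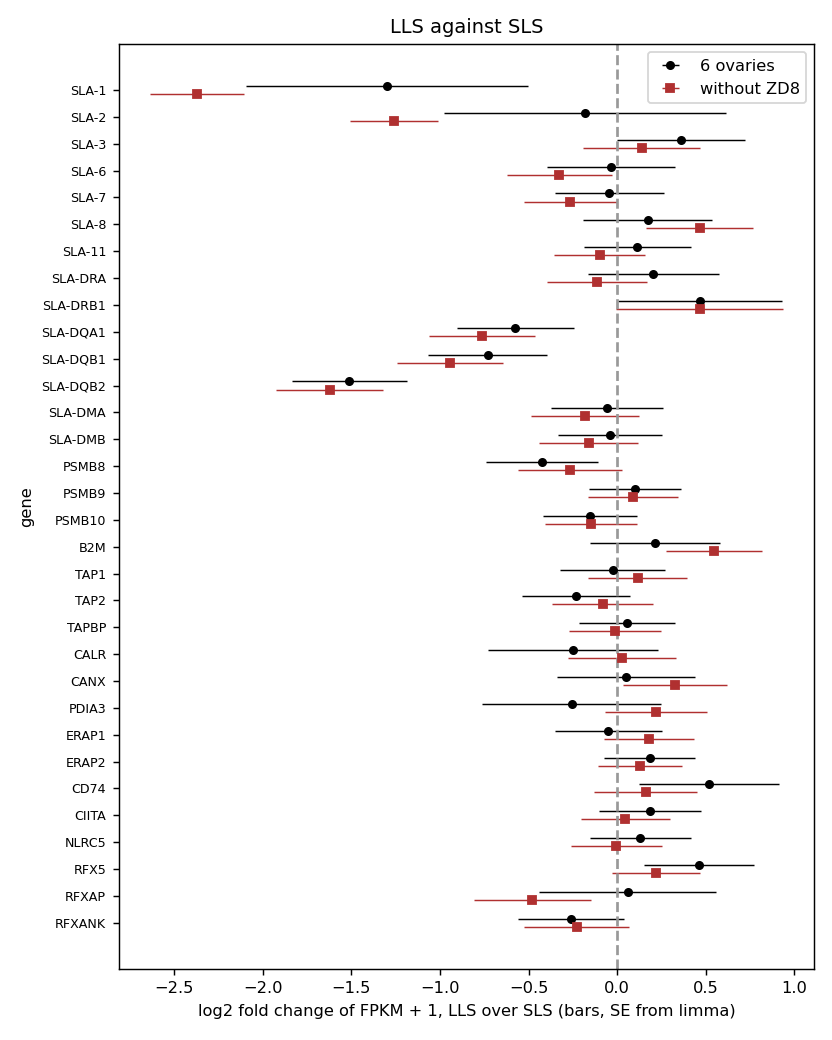
Log2 fold change of FPKM + 1, LLS over SLS (x), of the 32 tested members (y) with the SE from limma as bars, for all 6 ovaries (black circles) and without ZD8 (red squares). SLA-1 moves from -1.30 to -2.37 and SLA-2 from -0.18 to -1.26 when ZD8 is left out, while the DQ genes lie below 0 in both.

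Other genes of the pathways were followed as lists. None of the 10 further genes listed for class I loading and trimming was called by limma or had an unadjusted p under 0.05. Their median log2 fold change was -0.20, or 0.03 without ZD8. The list held the chaperone HSPA5 and the constitutive subunits PSMB5, PSMB6 and PSMB7, and 7 of its 10 genes were lowest in ZD8, against 26.3% of all tested genes. Among these 7 was SPPL2A, a protease that cuts CD74 and so belongs to class II processing. The same test called none of the 10 genes of class II processing, which include the lysosomal proteases CTSS, CTSB and LGMN and the thiol reductase IFI30, with a median of -0.26, or -0.04 without ZD8, and 6 of 10 lowest in ZD8. Over all tested genes the median was 0.02, or -0.10 without ZD8.

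Of 14 genes of interferon signalling and of the factors that bind class II promoters, 13 were tested and none was called or had an unadjusted p under 0.05, with a median of 0.00, or -0.10 without ZD8. Interferon gamma itself, IFNG, was at 0.458 FPKM in ZD2, at 0.160 FPKM in ZD7 and at 0 in the other 4 ovaries. IRF8 was at 1.95, 1.82 and 1.44 FPKM in SLS and at 2.52, 1.84 and 4.63 FPKM in LLS. NFYC, a subunit of the Y box factor, was between 6.51 and 10.9 FPKM in 5 ovaries and at 25.4 FPKM in ZD8.

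Of the class I-like genes, 5 of 7 symbols were in the table and 4 were tested. PROCR, the endothelial protein C receptor, was at 7.85, 8.76 and 10.8 FPKM in SLS and at 4.28, 4.04 and 6.23 FPKM in LLS. Its groups did not overlap, as for 3.17% of all tested genes with lower values in LLS. Its log2 fold change was -0.80 (SE 0.28), with an unadjusted p of 0.020 and an adjusted p of 0.999 by limma, so that it was not called. Of 8 endothelial markers, 1 (PECAM1) also had groups that did not overlap, with lower values in LLS. The median log2 fold change of these markers was -0.20, or -0.08 without ZD8, and their part in the PROCR values was not tested. The other 3 class I-like genes tested had no unadjusted p under 0.05. FCGRT, the heavy chain of the neonatal Fc receptor that also pairs with B2M, was between 64.1 and 107 FPKM with overlapping groups.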

How the data were processed

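Total RNA of 6 ovaries was sequenced after removal of ribosomal RNA. Reads were trimmed by the authors and mapped to Sscrofa11.1 with HISAT2, and FPKM values of 29884 genes were deposited. All 6 columns were used, and the small RNA table was not used here. Whole reads were recovered from FPKM with the longest RefSeq transcript (pseudogenes, the whole span) and 1 total per library. This gave whole reads in every library for 23404 of the 23472 rows with a single length (99.7%), among 23564 rows above 0, with a tolerance of 0.001 reads. Between 32272803 and 60903268 reads per library limit the precision of low rows.

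Genes with at least 1 FPKM in at least 3 libraries were compared on log2(FPKM + 1) by limma 3.58.1 (R 4.3.3) with a trended variance, LLS against SLS. P-values were adjusted by Benjamini and Hochberg over all 12260 genes and called under 0.05 with an absolute log2 fold change over 1. The pseudocount makes this scale understate changes of low genes. Separate sows stand behind the libraries, with 3 per group.

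Sums, ratios and orders of ovaries were described without a test. Coding sequences were aligned with MAFFT 7.526. The members and gene lists were chosen with earlier results of these data known. Values per ovary were given for every tested SLA gene and for the partner genes, by range where they say little more. Alternatives covered the pseudocount, the filter, the normalization, TPM, the variance trend, array weights and leaving out each ovary. Voom on recovered reads, sums over protein-coding or with unnamed rows, the orders of ZD2 and ZD8 and the ratios of SLA-1 to SLA-2, DQA1 to DRA and DQB1 to DRA were added after seeing the data. Some items are not reported here.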

Additional observations from a re-analysis of the deposited data

How the results depend on the processing

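The number of genes called was 0 with pseudocounts of 0.1 and 0.5, with either other filter, with quantile normalization, median centring, TPM, no variance trend and voom. Array weights, estimated at 0.135 for ZD8 and between 0.597 and 2.27 for the others, called 13 genes, and 1 member, SLA-1 (log2 fold change -2.29, adjusted p = 0.025 by limma). Leaving out each ovary gave 0 to 21 genes and 0 to 1 members, the higher counts without ZD8. An unadjusted p under 0.05 gave 1 member, and groups that do not overlap gave 3. Both counts hold SLA-DQB2, which reached the filter only through the SLS ovaries. The difference in the log2 ratio of class II to class I was -0.64 without the highest row of each class, 0.28 with classical genes, 0.05 with protein-coding rows, -0.03 with the unnamed rows and -0.10 from mean log2 values. It ran from -0.28 to 0.32 over the ovaries left out.

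Of the 32 members tested, 22 kept the sign of their log2 fold change over the other settings that keep all 6 ovaries. With array weights the sign turned for SLA-11 (-0.16), SLA-DRA (-0.060), NLRC5 (-0.0062), TAP1 (0.020), TAPBP (-0.10), CALR (0.035), PDIA3 (0.25), ERAP1 (0.21) and RFXAP (-0.51). It turned for SLA-2 with quantile normalization (0.061) and for RFXAP with voom (-0.046). Leaving out 1 ovary turned the sign of 18 members. The ranges were -1.26 to 0.37 for SLA-2, -0.10 to 0.29 for SLA-11, -0.33 to 0.19 for SLA-6, -0.26 to 0.15 for SLA-7, -0.075 to 0.47 for SLA-8, -0.22 to 0.22 for SLA-DMA, -0.17 to 0.15 for SLA-DMB and -0.12 to 0.48 for SLA-DRA. They were -0.11 to 0.55 for B2M, -0.0053 to 0.31 for NLRC5, -0.21 to 0.12 for TAP1, -0.13 to 0.16 for TAPBP, -0.0046 to 0.18 for PSMB9, -0.40 to 0.03 for CALR, -0.16 to 0.33 for CANX, -0.54 to 0.22 for PDIA3, -0.23 to 0.18 for ERAP1 and -0.48 to 0.36 for RFXAP. SLA-1 ran from -2.37 to -0.75, SLA-DQA1 from -0.79 to -0.33, SLA-DQB1 from -0.99 to -0.50 and SLA-DQB2 from -1.77 to -1.31. Over the settings that keep all 6 ovaries, SLA-DQB2 ran from -4.00 (voom) to -1.44 (quantile normalization), with -3.19 at a pseudocount of 0.1. The causes of these changes were not tested. SLA-DQB2 was not tested under the filter of 1 FPKM in all 6 libraries.

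No paired analysis was possible because the labels number no ovaries across the groups. With 3 ovaries per group and ZD8 unlike the others, differences of the size seen for most members could not be told from the spread between ovaries. Counts of reads on SLA-1, SLA-2, SLA-3 and SLA-DRB1 depend on how reads with several matches were placed, and reads of alleles unlike the reference could not be followed.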
